A study of Prunus persica with 4 samples.

Results

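Among the peach-specific miRNA candidates of *Prunus persica* cv. Lovell, 39 of 186 were small RNAs of 23 nt that began with uracil, guanine or cytosine. For each candidate the deposited table gives a hairpin precursor with a leading sequence for each of its arms, 5′ (5p) and 3′ (3p), where one was sequenced. The arm with more reads is called the main arm here. The 39 candidates were those whose main sequence had 23 nt, did not begin with adenine, was listed in fewer than 4 rows and did not belong to 38 candidates set aside by number. The table comes from 1 small RNA library, for which young leaves, flower buds and young stems of untreated trees from a garden were mixed, and it has no replicate. No count can be given to a single tissue, and the labels do not give the number of trees. The 3 degradome libraries of the same study, from leaves, stems and flowers, were not analysed here.

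In plants, miRNAs are cut from hairpin transcripts by Dicer-like enzymes, mainly DCL1. The cut leaves a short duplex with overhanging 3′ ends. An ARGONAUTE protein keeps the miRNA of this duplex and finds transcripts to silence by base pairing with it, and the partner, called the miRNA star, tends to be sequenced far less often. Other Dicer-like enzymes cut long double-stranded RNA into small interfering RNAs of other lengths, and in *Arabidopsis* the first base of a small RNA helps to decide which ARGONAUTE it enters. Length, first base and the presence of a star are therefore the features by which plant small RNAs are commonly sorted. The candidates described here were chosen by length, first base and read counts, so these values are given as a description without a test.

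The most abundant of these candidates, those with more than 20 reads on the precursor, were 5 in number. They are shown 5′ to 3′ with T for uracil as in the table, and capitals mark the seed, bases 2 to 8.
miRC125: gACCAATAtatttcgtcgcgcaa
miRC157: tGACTGTTgaatcaaattggtta
miRC115: cCTTATTTaagtgggattgagaa
miRC2: tTTGACTAtcgaacggataatca
miRC183: tTTAGGACtctatattgggcata

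All 39 candidates together had 562 reads, which is 3.58% of the sum of 15705 over all rows of the table. That sum is not a number of distinct reads, because a sequence listed in several rows has its count in each. For example, 1 sequence outside the 39 had 49 reads on the main arm in each of 5 rows. The share of distinct reads is therefore higher, and no interval is given for it. The Poisson and Wilson intervals in the text cover counting error at most. They treat reads as independent, which amplified reads are not, so they can be too narrow. Reads per precursor ran from 5 to 55 with a median of 11 (95% interval from the ranks of a binomial distribution, 9 to 13). This interval treats the 39 candidates as a random sample, although a rule chose them. The median was 13 over all 186 candidates, the 39 included, and 18 over the 147 others. The upper end was set in part by the selection, since the candidates set aside by number included the abundant ones of the table. Of the 562 reads, 539 were on the main sequences, 9 on the lesser arms and 14 on neither listed sequence. No candidate had more than 1 read on neither sequence, so that in every candidate the listed sequences took all reads or all but 1.

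miRC125, at scaffold_5:6080362-6080473 on the plus strand, had 55 reads, all on the 3p sequence (exact 95% Poisson interval 41.4 to 71.6). miRC157, at scaffold_6:20645440-20645533 on the minus strand, had 50 reads (interval 37.1 to 65.9), of which 49 were on the 5p sequence. miRC115, at scaffold_4:10141056-10141128 on the minus strand, had 44 reads on its 3p sequence (interval 32.0 to 59.1), which also matched the miRC30 locus described below. The intervals of these candidates overlapped, so the counts give no order among them. miRC2, at scaffold_16:68318-68394 on the minus strand, had 36 reads (interval 25.2 to 49.8), with 33 on the 5p and 2 on the 3p sequence. miRC183, at scaffold_8:1135299-1135550 on the minus strand, had 23 reads, all on the 5p sequence (interval 14.6 to 34.5), which lies below the interval of miRC157 and of miRC125. These 5 candidates held 208 of the 562 reads (37.0%, Wilson interval 33.1 to 41.1%), and the other 34 candidates had 18 reads or fewer. Of those 34, 21 had 10 to 18 reads and 13 had 5 to 9 reads, counts too low to rank them.

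The selection stood close to several limits. The table has 50 rows with a 23-nt main sequence that does not begin with adenine, and 11 of them fell outside. Of these, 9 rows listed 2 sequences found in 4 and 5 rows. The sequence gctcatgggtcgggcttgggctt was listed for 4 candidates with 10 or 11 reads on each precursor, and tgtctatttcagtacgtcgtgta for 5 candidates with 49 or 50 reads on each. The remaining 2, miRC58 and miRC86 with 34 reads each, were among the candidates set aside by number and shared 1 sequence. In contrast, each of the 39 main sequences was listed in 1 row only. A length of 23 nt was the greatest of any main sequence in the table, so there was nothing just above this limit, and 15 rows had main sequences of 22 nt that began with another base than adenine. No row had equal counts on both arms, so the choice of the main arm was never a tie.

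Uracil was the first base of 21 of the 39 main sequences, guanine of 11 and cytosine of 7. The reads on main sequences were divided in a like way, with 284 of 539 on sequences that began with uracil, 161 on guanine and 94 on cytosine. The main arm was 5p in 19 candidates and 3p in 20. The median GC content of the main sequences was 39.1%, from 26.1% in miRC7 and miRC168 to 60.9% in miRC170 and miRC186, and it was 47.6% over the main sequences of the other 147 candidates. It was also 39.1% among the 32 candidates with a 23-nt sequence that began with adenine.

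The bases at the 3′ end, which the selection did not use, were unevenly distributed. Adenine was the last base of 30 of the 39 main sequences, uracil of 5, cytosine of 3 and guanine of 1. Uracil was the base before the last in 28 of 39. Both together, a uracil followed by a final adenine, closed 20 of the 39 sequences (51.3%). The 7 of these with more than 12 reads are shown with the last 2 bases in capitals.
miRC157: tgactgttgaatcaaattggtTA
miRC183: tttaggactctatattgggcaTA
miRC61: ttattaatcgttagatcaggcTA
miRC85: ggagtttgtagcaattttcggTA
miRC124: tggattggaagacgcaagtgtTA
miRC168: ttaagaaattgatggcagtttTA
miRC109: tctggatgatccagatctggcTA

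Adenine as the last base and uracil before it were more frequent than at any other position of the sequence. The composition was not even elsewhere, and cytosine was found in 1 to 11 of the 39 sequences at any one position. Between the first and the last base, adenine was found in 5 to 18 of the 39 sequences at any one position, and uracil, at the positions from the second base to the third from the end, in 5 to 16. A uracil followed by adenine was found in 0 to 7 sequences at each of the 21 other places where these bases could stand, with a mean of 2.76, against 20 at the end. In the 3 places just before the end, no sequence had it. In the precursors, the base after the last base of the main sequence was adenine in 16, uracil in 11, cytosine in 7 and guanine in 5 of 39 candidates, and the base after that was adenine in 14 and uracil in 13. Every main sequence was found once, unaltered, in its precursor, so the final adenines are bases of the deposited precursors.

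The same 3′ end was found in 23-nt sequences that began with adenine and was rare in shorter ones. Of 29 distinct main sequences of 23 nt that began with adenine, 24 ended with adenine, and 17 (58.6%) ended with uracil and adenine. Elsewhere along those sequences the pair was found in 0 to 4 of the 29. Of 82 distinct main sequences of 20 to 22 nt, 32 ended with adenine and 7 (8.54%) with uracil and adenine, beside 1 to 9 of 82 at the other places. By length these 7 were 0 of 15 sequences of 20 nt, 6 of 55 of 21 nt and 1 of 12 of 22 nt. Among the shorter sequences that did not begin with adenine, as none of the 39 did, 5 of 58 (8.62%) ended with this pair. These are counts of sequences of 1 library, which are not replicates, so no test was made, and the 3′ end is not particular to the 39 candidates but shared with the other 23-nt sequences.

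Weighted by reads, 463 of the 539 reads on the main sequences ended with adenine (85.9%) and 260 with uracil and adenine (48.2%). All reads counted for a main sequence share its 3′ end, so no interval is given for these shares. Of the 5 most abundant candidates, miRC157 and miRC183 ended with this pair, and miRC125, miRC115 and miRC2 ended with adenine after another base. By the first base, the pair closed 12 of 21 sequences that began with uracil, 5 of 11 that began with guanine and 3 of 7 that began with cytosine. It closed 12 of the 19 sequences of the 5p arm and 8 of the 20 of the 3p arm.

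A sequence on both arms, that is a candidate miRNA star, was listed for 7 of the 39 candidates (17.9%), and for 39 of the other 147 (26.5%). All other candidates of the 39 had no read on the lesser arm, and a count of 0 allows up to 3 reads. Among the 147, median reads per precursor were 48 with both arms and 12 with 1 arm. Among the 39 these medians were 12 and 11. The part of read number in the 2 shares was not tested. The lesser arm had 2 reads in miRC2 and miRC124 and 1 read in miRC109, miRC118, miRC63, miRC12 and miRC31. These 7 pairs are shown with the main sequence first, its seed in capitals, since a listed star is the evidence for a duplex.
miRC2 5p: tTTGACTAtcgaacggataatca
miRC2 3p: ttatcctggttcgataggttggg
miRC124 5p: tGGATTGGaagacgcaagtgtta
miRC124 3p: tcaggtgcgtaaatttcgaggacgaa
miRC109 5p: tCTGGATGatccagatctggcta
miRC109 3p: tccagagttgagatttccggaca
miRC118 3p: tTTGGATCagggatgttaccata
miRC118 5p: tggtaatatcattcaaacg
miRC63 3p: gAAGAGGCaaataggttactcta
miRC63 5p: ggtaaacctcatttgtcttgcca
miRC12 5p: cATCAACTtgttttcggacctta
miRC12 3p: aggctttgagagctagctgctaat
miRC31 3p: tTTGAGCCtcgaacggattttta
miRC31 5p: ggaattcgtggatctcaattt

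The lesser sequences were 19 to 26 nt long, and only those of miRC2, miRC109 and miRC63 had the 23 nt of the main sequence. In the deposited structures, 6 of the 7 pairs lay opposite each other with a 3′ overhang of 2 nt at both ends, the form that a Dicer-like enzyme leaves. In miRC2 the overhang was 3 nt on the 5p strand and 2 nt on the 3p strand. The study identified its candidates with criteria from Meyers et al. and a hairpin-search program. What these ask of overhangs or unpaired bases is not given in the sources used here. Both features may therefore have been selected for, and their counts are a description only. The share of arm reads on the lesser arm was 5.71% in miRC2 (Wilson interval 1.58 to 18.6%), with 33 and 2 reads, and 12.5% in miRC124 (interval 3.50 to 36.0%), with 14 and 2 reads, and the intervals overlapped. For the other 5 pairs the star was a single read.

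The 7 candidates with both arms had more unpaired bases than most of the rest, a difference that was not tested. In the deposited structures, 6 of the 7 (miRC2, miRC12, miRC31, miRC109, miRC118 and miRC124) had 5 or 6 unpaired bases in the main sequence, and miRC63 had 3. Of the 32 candidates with 1 arm, 30 had at most 4 unpaired bases, and miRC169 with 5 and miRC168 with 7 had more. With structures from RNAfold, 5 of the 32 had more than 4, with miRC7, miRC125 and miRC170 added, and 6 of the 7 candidates with both arms still did. Outside the 39 candidates, more than 4 unpaired bases were found in 6 of 39 candidates with both arms and in 5 of 108 with 1 arm. Over the 39 main sequences, 29 to 37 were paired at any one position. The last base but one, often a uracil, was paired in 36 and the last base in 29.

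The hairpins differed widely in size and stability. The median precursor had 112 nt, the shortest 73 nt and the longest 358 nt. In all, 17 were shorter than 100 nt and 10 longer than 200 nt. The shortest belonged to miRC115 and the longest to miRC170, at scaffold_7:8054334-8054691 on the minus strand, with 10 reads. The folding free energies in the table are negative and are written here without the sign. They averaged 44.7 kcal/mol, and the SD across precursors was 25.2 kcal/mol. The smallest was 19.0 kcal/mol in miRC169, at scaffold_7:6028148-6028243 on the minus strand with 11 reads, and the largest was 140.49 kcal/mol in miRC72, at scaffold_3:6938819-6939168 on the plus strand with 13 reads on a precursor of 350 nt. A longer hairpin has more pairs, and therefore the energy per 100 nt of precursor is compared. It had a median of 28.6 kcal/mol, beside 35.7 kcal/mol for the 32 candidates of 23 nt that began with adenine, 40.7 kcal/mol for the 104 candidates of 20 to 22 nt and 39.3 kcal/mol for all 147 other candidates. Unlike the 39, these groups kept the candidates set aside by number and sequences listed in several rows. The part of that choice in the difference was not tested. The ranges overlapped widely, since they reached from 17.5 to 75.5 kcal/mol in the 39 candidates and up to 72.7 kcal/mol in the others. The GC content given above was also lower in the 39 candidates than in the 147 others, and its part in the energies was not tested.

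The ends of this range were miRC118 and miRC94. miRC118, at scaffold_4:16348459-16348741 on the minus strand, had 12 reads on a precursor of 283 nt and the lowest energy per 100 nt, 17.5 kcal/mol. miRC94, at scaffold_3:16494467-16494563 on the minus strand, had 75.5 kcal/mol per 100 nt and the fewest reads of all, 5. Its 97-nt precursor is shown with the 3p sequence in capitals, because it was close to a perfect inverted repeat.
miRC94 precursor: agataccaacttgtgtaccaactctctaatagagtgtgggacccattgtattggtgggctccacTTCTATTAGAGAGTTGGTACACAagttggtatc
Every base of the main sequence was paired in miRC94, and its 5′ arm held the reverse complement of the main sequence with 1 mismatch. miRC72 was also paired at every base. Its reverse complement was found in its own precursor with 3 mismatches, as were those of miRC91 and miRC164. Over the 39 candidates the best ungapped match to the reverse complement, anywhere in the own precursor, had a median of 8 mismatches and at most 12. It was within 5 mismatches in 10 candidates. Every precursor has some best match, so the larger counts do not show that a complement was present. The candidates thus included nearly complete inverted repeats, and gaps and wobble pairs in the other stems were not counted.

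The 39 main sequences were all distinct and held 38 seeds. miRC125 and miRC173 shared a seed and differed by 1 substitution, A10T, counted from 1 at the 5′ end of miRC125. They are shown with the seed in capitals.
miRC125: gACCAATAtatttcgtcgcgcaa
miRC173: gACCAATAtttttcgtcgcgcaa
miRC173, at scaffold_7:11261602-11261836 on the minus strand, had 9 reads (Poisson interval 4.12 to 17.1) against 55 for miRC125, and the intervals were separate. Both were 3p sequences. Counts of loci this alike are uncertain, because the number of mismatches allowed in mapping is not given in the sources used here. The precursor of miRC125 held a second copy of this sequence, from base 47 to base 69, on the same strand as the main sequence from base 80. Capitals in the next line mark where that copy differs from the main sequence, by A8G and A10T.
miRC125 second copy: gaccaatGtTtttcgtcgcgcaa
This copy differed from miRC173 by the substitution A8G alone. The whole 112-nt precursor is shown with the main sequence in capitals.
miRC125 precursor: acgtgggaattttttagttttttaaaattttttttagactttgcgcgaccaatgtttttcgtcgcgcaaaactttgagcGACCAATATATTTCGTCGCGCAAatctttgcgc
All 55 reads of miRC125 fell on the copy nearer the 3′ end.

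miRC157, miRC164 and miRC134 were related in another way. miRC164, at scaffold_7:20969701-20969837 on the plus strand with 10 reads, differed from miRC157 by G2A and A10G over all 23 bases. miRC134, at scaffold_5:10113262-10113352 on the minus strand with 6 reads, matched miRC164 when moved by 5 bases, with 2 mismatches over the 18 shared positions. They are shown with the seeds in capitals, and no seed was shared.
miRC157: tGACTGTTgaatcaaattggtta
miRC164: tAACTGTTggatcaaattggtta
miRC134: tCTCTTAAtcgttggatcaaatt
The reads were unequal here too, with 50 for miRC157 and intervals of 4.80 to 18.4 for miRC164 and 2.20 to 13.1 for miRC134. The precursor of miRC61, at scaffold_2:16746765-16746866 on the minus strand with 18 reads, held the reverse complement of miRC134 with 1 mismatch and that of miRC164 with 3. The reverse complement of miRC134 was also found in the precursors of miRC157 and miRC164, with 3 mismatches each. These 4 candidates lay on 4 scaffolds, and their precursors thus carried forms of one sequence. Its presence in both orientations is not read as a separate result, because the arms of a hairpin pair with each other. Without gaps, the reverse complement of miRC134 had 8 mismatches at its best match in its own precursor. The precursors of miRC157 and miRC61 are shown with the 5p main sequences in capitals.
miRC157 precursor: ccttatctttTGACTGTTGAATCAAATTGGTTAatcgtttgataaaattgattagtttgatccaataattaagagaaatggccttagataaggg
miRC61 precursor: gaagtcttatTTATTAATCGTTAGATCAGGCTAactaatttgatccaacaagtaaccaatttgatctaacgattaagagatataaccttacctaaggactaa

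Further relations led outside the 39 candidates. The reverse complement of the main sequence of miRC115 was found without a mismatch in the precursor of miRC30, from base 42 to base 64, although miRC115 lies on scaffold 4 and miRC30 on scaffold 1. The main sequence of miRC30 is another one, of 21 nt, and had 10 reads. The 44 reads of miRC115 match both loci without a mismatch, so they cannot be assigned to either locus. The main sequence of miRC85, with 17 reads at scaffold_3:4259622-4259914 on the minus strand, matched that of miRC71, with 43 reads on the same scaffold, at 19 of 22 shared positions. The sequence of miRC71 starts 1 base earlier, with an adenine.

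Likeness to conserved miRNAs was low, which was in part fixed in advance. The authors removed reads that matched known miRNAs before they searched for candidates, so the comparison below is a description only. Set against the sequences of 117 conserved miRNAs of peach, no main sequence came closer than 6 mismatches over at least 18 shared positions. One candidate, miRC4, shared the seed of a conserved family, miR169, whose targets in other plants are subunits of the transcription factor NF-Y. miRC4, at scaffold_1:4312499-4312653 on the plus strand with 12 reads, is shown with a conserved miR169 sequence, seeds in capitals.
miRC4: tAGCCAAGcggcgatactctcta
miR169: tAGCCAAGgatgacttgcctg
This seed was also that of 7 other candidates, most of them among those set aside by number. The likeness of miRC4 to miR169 did not go on past the seed, and its main sequence had 3 unpaired bases in a 155-nt precursor whose energy was 54.2 kcal/mol.

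The 39 candidates, of 186 in all, were spread over 10 of the 11 scaffolds that carry candidates. They were 9 of the 41 candidates on scaffold 1, 7 of the 25 on scaffold 4 and 6 of the 15 on scaffold 7. The minus strand held 25 and the plus strand 14, and the strands of the other candidates were not counted. None of the 39 overlapped another candidate. The genome version behind these positions is not given in the sources used here, so that genes, exons or introns at these positions were not assigned.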

How the data were processed

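Small RNA reads came from 1 library of leaves, stems and flower buds together, and the deposited values are the authors' raw read counts per precursor and per listed arm, not normalized. The authors removed adaptors, reads of other non-coding RNA classes and known miRNAs. They then ran MIREAP, which searches a genome for hairpins around read stacks, with default parameters, and also used criteria from Meyers et al. In all 39 candidates the precursor ends exactly 10 bases beyond the main sequence on its outer side, away from the loop. The deposited folding free energies, in kcal/mol, are the authors' and come from mFold.

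Candidates were chosen by the rule in the text, with earlier results of these data known, and so were the lists and limits. Named were candidates with more than 20 reads, with both arms, with related sequences, with more than 4 unpaired bases or at either end of length or energy; miRC4, miRC7, miRC19, miRC56, miRC61, miRC85, miRC91, miRC186 and candidates outside the 39 were named after their values were seen. Pairing and overhangs were read from the deposited structures. Main sequences were compared without gaps, shifted by up to 5 bases, with at least 18 shared positions and at most 3 mismatches. Conserved miRNA sequences, not their counts, were taken from the study's supplement. With 1 library and no groups, no group test was possible. Wilson, Poisson and binomial rank intervals at 95% used scipy 1.17.1. Alternatives included RNAfold 2.7.2. The functions were tested on simulated hairpins.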

Additional observations from a re-analysis of the deposited data

How the results depend on the processing

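Of 29 alternatives, 27 stayed within the interval of the reported value, or within 1.5 times a count. Several of the 27 could not differ from it and are no check. These counted each distinct sequence once, gave ties to the 3p arm or merged overlapping precursors. All 39 sequences were distinct, no row was tied and no candidate overlapped another. The exceptions were 2. With at least 2 reads required on the lesser arm, candidates with both arms fell from 7 to 2, because the star of the other 5 was a single read. With up to 5 mismatches allowed, related pairs among the 39 rose from 3 to 5, and with up to 2 they remained 3. The share ending with adenine was 70.0% to 85.9% over its alternatives, 1 of them added later, against 76.9%. The share ending with uracil and adenine, whose alternatives were chosen after seeing the data, was 43.8% to 57.1% against 51.3%. With RNAfold structures, 28 in place of 31 candidates had at most 4 unpaired bases, 5 in place of 6 pairs had 2-nt overhangs at both ends, and the mean energy was 43.1 in place of 44.7 kcal/mol. Matching to a genome was not run. At a median of 11 reads, counts cannot rank most of these candidates. No paired analysis was possible because the table holds a single library without groups.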

Other observations

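The 3′ ends were also counted by abundance and by arm, both chosen after the values were seen. Of the 21 candidates with more than 10 reads, 19 ended with adenine and 12 with uracil and adenine, and of the 18 with 10 reads or fewer, 11 and 8 did. miRC7 and miRC56, with 11 reads each, were the 2 exceptions in the first group, and both ended with 2 uracils. All 7 candidates with both arms ended with adenine, and 6 of them, all but miRC2, with uracil and adenine, whereas 23 and 14 of the 32 candidates with 1 arm did. No test was made of these differences.

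The nearest other candidate on the same scaffold was 3.76 to 2048 kb away, with a median of 443 kb, for the 37 candidates that had one. It was within 10 kb for 3 candidates. miRC115 lay 3.76 kb from miRC102, miRC19 lay 4.08 kb from miRC35 and miRC183 lay 6.33 kb from miRC177. In no pair of related candidates among the 39 were both on one scaffold.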
